A study of Homo sapiens with 2 samples.

Results

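The 10 genes described here encode the proteins that break down heme and store, recycle, take up or export its iron, with the last enzyme of heme synthesis. They were taken by symbol (HMOX1, HMOX2, BLVRA, BLVRB, FTL, FTH1, NCOA4, TFRC, SLC40A1 and FECH) from a table of 60612 gene rows, in which each symbol occurred once. RNA was sequenced from MDA-MB-231 cells, an established human triple-negative breast cancer line. The control group was 1 library of cells kept in normal medium, and the labels name no solvent for it. The treated group was 1 library of cells given 24 µM of D16, which the labels call a chalcone, for 48 h. Both groups were grown in the same serum-containing RPMI medium, and the question was which messages differed between them. Levels are the authors' FPKM, fragment counts scaled for message length and library size, so they can be compared between genes. With 1 library per group there was no replicate check and no test, and each 95% interval covers counting error only. The genes were chosen by the difference in FPKM between these same libraries, so all differences are a description. Where a pair of values is given without names, the control comes before D16. Gene coordinates are those of the deposited table, whose genome build the sources used here do not give.

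Heme oxygenase opens the heme ring and releases iron, carbon monoxide and biliverdin, which biliverdin reductase turns into bilirubin. HMOX1 encodes the stress-inducible enzyme and HMOX2 the constitutive one. Freed iron can be held in ferritin, a shell of FTL light and FTH1 heavy chains, delivered to lysosomes by the ferritin receptor NCOA4, or exported by ferroportin (SLC40A1). TFRC, the transferrin receptor, brings iron into the cell, and FECH inserts it into protoporphyrin to make heme. Iron regulatory proteins bind hairpins called iron-responsive elements. In ferritin and ferroportin messages the hairpin lies before the coding region, where binding blocks translation, and in the TFRC message several lie after it, where binding slows decay.

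The sequences that tie these genes to iron sensing are shown because 4 of the 10 members hold a match to the hairpin pattern. Each message was searched on its own strand for a bulged C, a 5-base-pair stem with G-U pairs allowed and the loop CAGTGN, in the longest protein-coding transcript of GENCODE release 29 on GRCh38. FTL, FTH1 and SLC40A1 held 1 match each, in the 5′ UTR, and TFRC held 4, all in the 3′ UTR. Windows of 30 bases are printed 5′ to 3′ with T for U and with the loop in capitals.
FTL, chr19:48965335-48965364, plus strand: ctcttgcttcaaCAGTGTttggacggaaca
FTH1, chr11:61967573-61967602, minus strand: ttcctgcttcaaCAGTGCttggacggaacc
SLC40A1, chr2:189580660-189580689, minus strand: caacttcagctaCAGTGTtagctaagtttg
TFRC, 1st, chr3:196050978-196051007, minus strand: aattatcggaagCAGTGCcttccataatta
TFRC, 2nd, chr3:196050574-196050603, minus strand: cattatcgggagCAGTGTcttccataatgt
TFRC, 3rd, chr3:196050509-196050538, minus strand: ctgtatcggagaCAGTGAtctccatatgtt
TFRC, 4th, chr3:196050462-196050491, minus strand: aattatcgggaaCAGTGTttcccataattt
The FTL and FTH1 windows shared 26 of 30 bases. The same pattern occurred in 259 of 19659 protein-coding genes (1.32%), and on the opposite strand of those messages in 270 (1.37%), so the letters alone are not specific to iron genes. HMOX1, HMOX2, BLVRA, BLVRB, NCOA4 and FECH had no match in the message searched. In RefSeq windows of GRCh38.p14 from 250 bases before to 50 after the gene start, found for 8 of the 10 genes (all but HMOX1 and FTH1), the antioxidant element core TGACNNNGC was searched on both strands. It was present in 2 of their 10 windows, 1 of NCOA4 and that of FECH, beside 13.35% of 35116 windows of all genes. Sequence farther from the gene start was not searched, so a window without the core does not show that a gene lacks the element.

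HMOX1, FTL, FTH1 and TFRC were at least 2-fold higher in the D16 library, and no member was at least 2-fold lower. Among the members the largest ratio belonged to HMOX1 and the largest gain in FPKM to FTL. Of the 10 members 9 had a mean of at least 1 FPKM, which was the requirement for being counted, and SLC40A1 did not. On the log2(FPKM + 1) scale 4 of these 9 passed 2-fold upwards, beside 3.63% of all 11830 genes counted, and 0 passed it downwards, beside 3.97%. Of the 9, 7 lay above 0 and the median was 0.47, beside 56.9% above 0 and a median of 0.08 over all genes counted. Since this contrast chose the set, nothing is read from these shares. Among all genes past 2-fold 47.8% were higher as deposited, 66.8% after rescaling both libraries to equal sums of FPKM and 31.0% after centring, in which the median difference of genes averaging 5 FPKM or more (0.15) was subtracted from all differences. The members nearest to the 2-fold line were TFRC just past it, at 1.04, and BLVRB short of it, at 0.47. In bulk RNA, fewer cells of a type and less RNA per cell cannot be told apart.

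**Figure D1:**
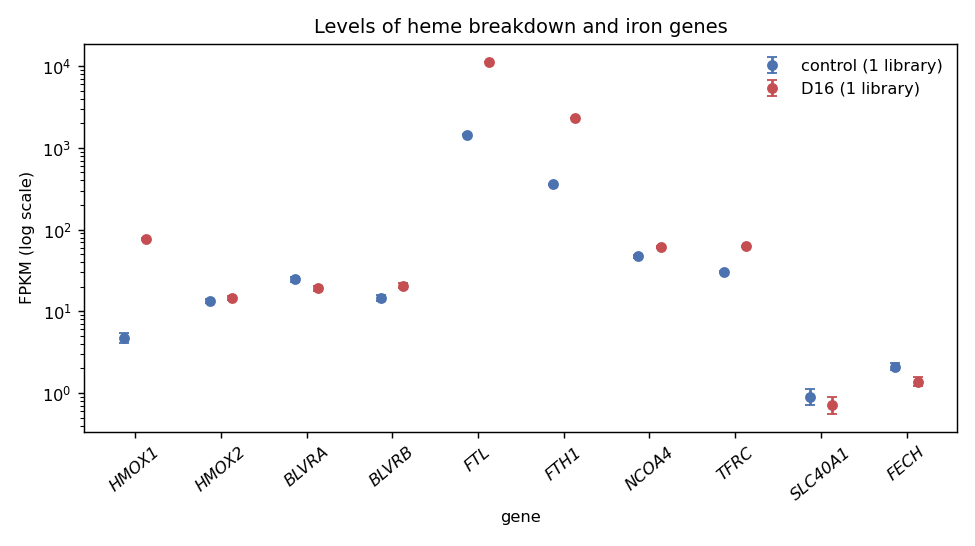
FPKM (log axis) of each of the 10 genes in the control library (blue) and the D16 library (red), with exact 95% Poisson counting intervals. HMOX1, FTL, FTH1 and TFRC lie well above their control points, while the other members lie near theirs.

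HMOX1 (ENSG00000100292, chromosome 22, 35380361 to 35390293, plus strand) had 4.72 FPKM in control cells, from 919 counts, and 76.2 FPKM in D16 cells, from 15395 counts. The ratio was 16.1 (95% interval 14.1 to 18.5), the 9th largest log2 difference upwards among the 11830 genes. Its level rank among all rows moved from 6467 to 481. HMOX2 (chromosome 16, 4474690 to 4510346) was nearly level, with 13.5 FPKM in control cells and 14.6 FPKM in D16 cells. Its ratio of 1.08 had an interval of 0.993 to 1.18 that includes equality, and its log2 difference of 0.11 became -0.04 after centring.

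The order of the heme oxygenases was therefore opposite in the 2 libraries. HMOX2 was 2.85 times HMOX1 in the control library, and HMOX1 was 5.22 times HMOX2 in the D16 library. HMOX1 made up 25.95% of their summed FPKM (18.2) in the control library and 83.9% of the sum (90.8) in the D16 library. HMOX2 overlaps NMRAL1 on the other strand, which stood at 5.87 FPKM in control and 3.79 in D16. The library protocol marked strand by removing the uracil-labelled strand, but the sources used here do not say whether counting used it.

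The biliverdin reductases differed in opposite directions by small amounts. BLVRA (chromosome 7, 43758680 to 43807342), the main biliverdin reductase of adult tissue, had 24.5 FPKM in control cells and 19.1 FPKM in D16 cells, a ratio of 0.778 (95% interval 0.707 to 0.857). BLVRB (chromosome 19, 40447765 to 40465764), which also reduces flavins, stood at 14.6 and 20.6 FPKM, a ratio of 1.41 (95% interval 1.26 to 1.58). Neither passed 2-fold, and each kept its sign under every scaling and pseudocount tried. BLVRA was 1.68 times BLVRB in the control library and 0.926 times BLVRB in the D16 library, where their counting intervals overlapped. Their summed FPKM, 39.1 and 39.7, differed little, unlike the sum of the heme oxygenases.

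Both ferritin chains were far more abundant in the D16 library. FTL (ENSG00000087086, chromosome 19, 48965309 to 48966879, plus strand) had 1455 FPKM from 107089 counts in control cells and 11306 FPKM from 865288 counts in D16 cells, a ratio of 7.77 (95% interval 7.67 to 7.87). FTH1 (ENSG00000167996, chromosome 11, 61959718 to 61967634, minus strand), the chain that oxidises iron, stood at 358 FPKM from 60550 counts and at 2302 FPKM from 405357 counts, a ratio of 6.44 (95% interval 6.33 to 6.55). These intervals do not overlap, and the light-to-heavy ratio of FPKM was 4.07 in the control library and 4.91 in the D16 library.

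In the control library FTL ranked 22nd by FPKM among all rows, where the mitochondrial message MT-CO2 ranked first with 22570 FPKM. In the D16 library it had the highest FPKM of any row, with MT-CO2 next at 11302 FPKM, inside the counting interval of FTL (11258 to 11354). FTH1 moved from rank 71 to rank 16. Together the ferritin chains made up 0.539% of the summed FPKM of the control library and 4.59% of that of the D16 library. By counts, which do not correct for length, the shares were 0.232% and 1.73%.

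**Figure D2:**
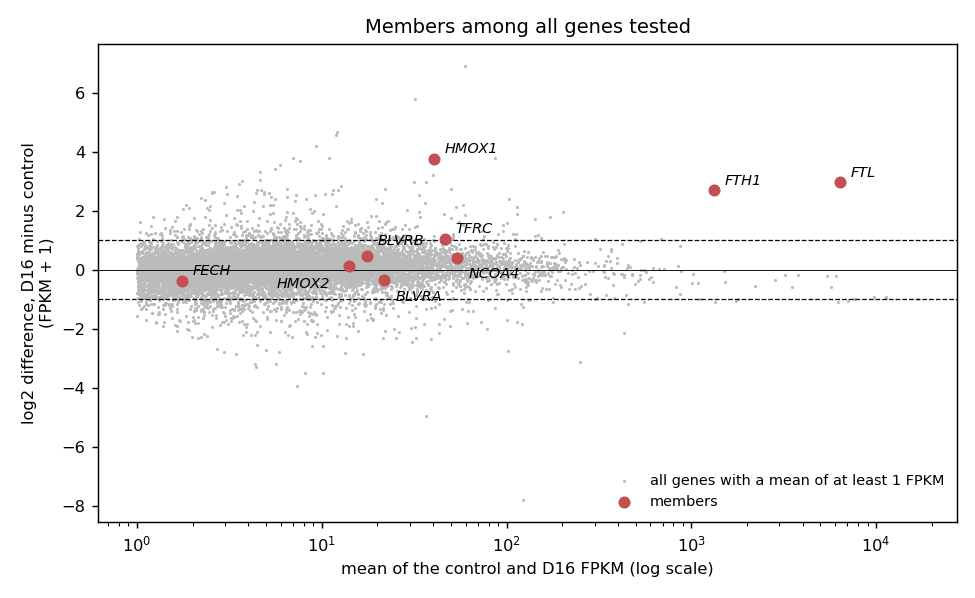
Log2 difference (D16 minus control, FPKM + 1) against mean FPKM (log axis) for the 11830 genes counted (grey) and the 9 members among them (red), with dashed lines at 2-fold. FTL and FTH1 lie at 2.96 and 2.68 and have the highest mean levels of the members.

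NCOA4 (chromosome 10, 46005088 to 46030714), the autophagy receptor that carries ferritin to lysosomes, was higher by less than the ferritin chains themselves. Its level was 46.9 FPKM in control cells and 61.5 FPKM in D16 cells, a ratio of 1.31 (95% interval 1.26 to 1.36). TFRC (chromosome 3, 196027183 to 196082096) had 29.9 FPKM in control cells, from 19726 counts, and 62.7 FPKM in D16 cells, from 42963 counts. Its ratio was 2.09 (95% interval 2.02 to 2.17). The uptake receptor message was thus higher in the same library as the storage messages. On the log2 scale TFRC missed the line after centring (0.90), with a pseudocount of 5 FPKM (0.95) and after rescaling without mitochondrial and the most abundant genes (0.98).

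Ferroportin and ferrochelatase were low in both libraries. SLC40A1 (chromosome 2, 189560590 to 189583758), the only known iron exporter of mammalian cells, had 0.907 FPKM from 324 counts in control cells and 0.713 FPKM from 266 counts in D16 cells. The ratio of 0.787 had an interval of 0.557 to 1.098, so no difference was detectable at this depth. FECH (chromosome 18, 57544377 to 57586702) stood at 2.10 and 1.39 FPKM, a ratio of 0.659 (95% interval 0.562 to 0.772). The exporter message was below 1 FPKM in both libraries.

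Ordered by FPKM, the control library ran FTL, FTH1, NCOA4, TFRC, BLVRA, BLVRB, HMOX2, HMOX1, FECH and SLC40A1. Of these neighbours, BLVRB and HMOX2 alone had overlapping counting intervals. In the D16 library HMOX1 came next after FTH1, TFRC and NCOA4 overlapped at 62.7 and 61.5 FPKM, and BLVRB and BLVRA overlapped at 20.6 and 19.1 FPKM. FTL and FTH1 at the top and FECH and SLC40A1 at the bottom held their places in both.

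**Figure D3:**
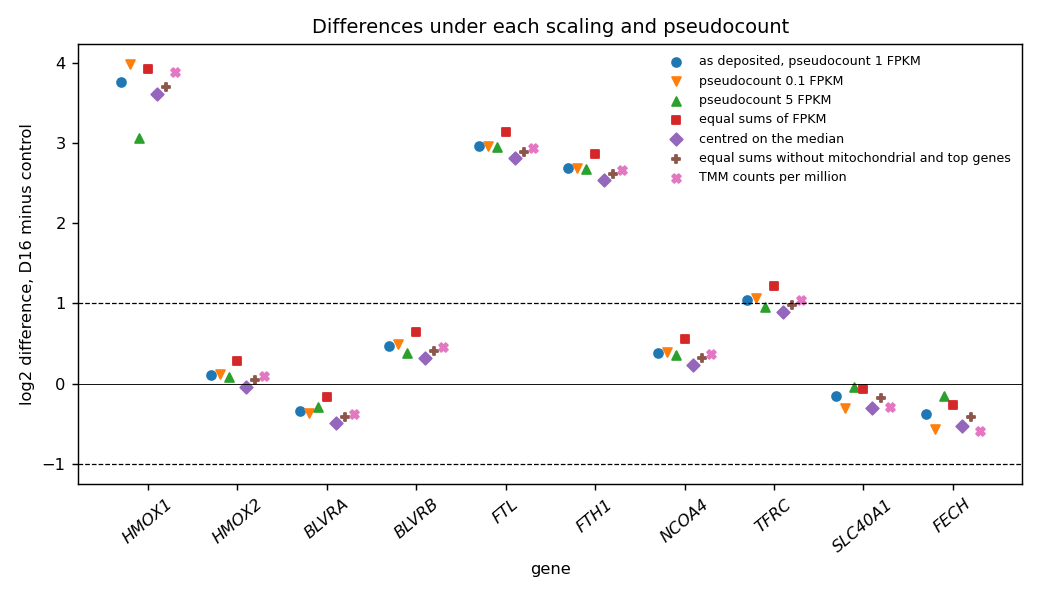
Log2 difference of each member (D16 minus control) as deposited and under 6 other scalings or pseudocounts, with dashed lines at 2-fold. HMOX1, FTL and FTH1 stay above 2 under all of them, TFRC straddles the line at 1, and HMOX2 crosses 0 after centring.

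The genes outside the set with differences nearest to those of HMOX1 and FTL were looked up among rows with a symbol, a mean of at least 5 FPKM and a value in both libraries. With only 2 libraries, likeness here is the size of 1 log2 difference. For HMOX1, at 3.75, they were the ferritin pseudogene FTH1P10 (3.77), the short microRNA gene MIR22 (3.79, from 1 control count and 105 D16 counts, a single read pair or less in control) and UPK3BL1 (3.68). Each of these had less than 1 FPKM in control cells (0.630, 0.0848 and 0.244), so the added 1 FPKM shapes their values. Without it their ratios were 33.8, 165 and 61.2, against 16.1 for HMOX1. For FTL, at 2.96, they were the ferritin pseudogene FTH1P11 (2.97), the early growth response factor EGR1 (2.98) and the ferritin pseudogene FTH1P2 (2.72). Of these 6 genes 3 were copies of FTH1.

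Ferritin has many processed pseudogenes, gene copies made from its message that can share reads with it. The table held 24 numbered FTH1 pseudogenes and 16 numbered FTL pseudogenes, of which 11 and 13 were listed as absent in both libraries. Of the FTH1 copies 9 had a mean of at least 1 FPKM, of which 8 passed 2-fold upwards and 1 downwards. Over all genes counted these shares were 3.63% and 3.97%. FTH1P2 stood at 12.4 and 87.5 FPKM, FTH1P7 at 6.997 and 73.3 FPKM and FTH1P11 at 7.56 and 66.2 FPKM, ratios of 7.04, 10.5 and 8.76. The ratio of FTH1 itself, 6.44, lay inside the interval of FTH1P2 (5.76 to 8.70). The intervals for FTH1P7 (8.31 to 13.2) and FTH1P11 (7.02 to 11.04) lay wholly above it.

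Among FTL copies, FTLP3 alone reached 1 FPKM, at 2.06 and 16.4 FPKM, a ratio of 8.00 (95% interval 5.17 to 12.9) that includes that of FTL. FTLP2 stood at 0 and 0.134 FPKM and FTLP12 at 0.0457 and 0 FPKM, from 7 counts or fewer. A pair of FTH1 copies stood apart. FTH1P10 was at 0.630 and 21.3 FPKM, a ratio of 33.8 (95% interval 19.8 to 68.0), and FTH1P5, named after its values were seen, was lower, at 2.38 and 0.472 FPKM, from 110 and 23 counts. By edit distance over the shorter sequence the 9 FTH1 copies were 90.9% to 97.5% identical to the FTH1 message, and FTLP3 was 97.7% identical to that of FTL.

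The pseudogene rows held 3.14% of all counts on FTH1 and its copies in the control library and 3.86% in the D16 library, and 0.0877% and 0.0889% for FTL. Summed with their copies, FTH1 had a ratio of 6.49 and FTL one of 7.77, close to the ratios without them. How much of the pseudogene counts came from ferritin messages was not tested. FTH1 also overlaps BEST1 on the opposite strand, which stood at 0.323 and 1.72 FPKM (ratio 5.32, 95% interval 3.98 to 7.04). The counts of BEST1 were 238 and 1312, against 60550 and 405357 for FTH1. Without strand, reads within the stretch that the 2 genes share cannot always be told apart.

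**Figure D4:**
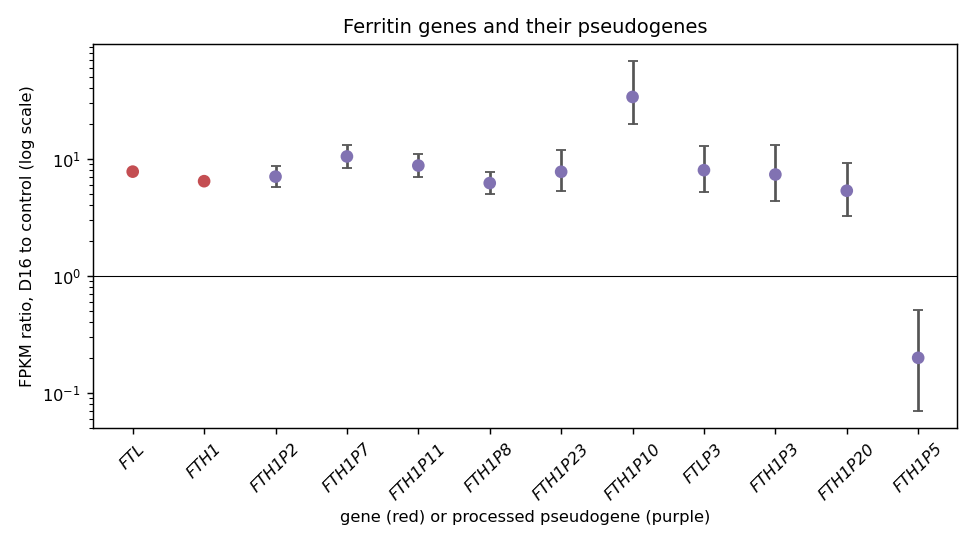
Ratio of D16 to control FPKM (log axis) with exact 95% counting intervals for FTL and FTH1 (red) and the 10 pseudogenes with a mean of at least 1 FPKM (purple). Most copies lie between 5.33 and 10.5, a range that holds the ratios of both ferritin genes, with FTH1P10 above at 33.8 and FTH1P5 below 1.

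Of 79 other genes of heme and iron handling in 9 lists, 66 had a mean of at least 1 FPKM. Of these, 4 passed 2-fold upwards (6.06%) and 3 downwards (4.55%), with a median log2 difference of 0.05. Over all genes counted the shares were 3.63% and 3.97% and the median 0.08. These counts became 8 and 3 after rescaling to equal sums and 3 and 5 after centring. The counts over all genes moved the same way. They were 430 higher and 470 lower as deposited, 681 and 338 after rescaling to equal sums, and 303 and 675 after centring.

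Heme synthesis genes lay below 0 in 7 of 8 cases as deposited, beside 56.9% above 0 over all genes counted. None of the 8 was 2-fold apart, beside 3.63% higher and 3.97% lower over all genes counted. The list median of -0.25 ran from -0.40 to -0.08 over the alternatives. The gene above 0 was ALAS1, the first and rate-limiting enzyme, whose transcription heme represses. Its level was 26.8 FPKM in control cells and 43.6 FPKM in D16 cells, a ratio of 1.63 (95% interval 1.52 to 1.74). Among the later enzymes, PPOX stood at 2.06 and 1.13 FPKM (ratio 0.550), in the same direction as FECH. Heme transport and binding genes had none 2-fold apart among the 7 counted, beside the same shares of all genes. Their median was 0.09, or -0.08 at its lowest among the alternatives. Below the filter of 1 FPKM, ABCG2 stood at 1.02 and 0.425 FPKM, a ratio of 0.418 (95% interval 0.295 to 0.582). FLVCR2, also below it, stood at 0.473 and 0.107 FPKM, a ratio of 0.227 (95% interval 0.114 to 0.449). The interval of HPX, below it too, included equality. The heme-binding membrane protein PGRMC1 stood at 51.1 and 68.0 FPKM, its relative PGRMC2 at 25.7 and 29.9 FPKM, and SLC46A1, a folate and heme carrier, at 2.02 and 1.45 FPKM.

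Around TFRC, 5 of the 6 other uptake genes counted lay below 0 as deposited, beside 56.9% above 0 over all genes counted. Some of the 5 had counting intervals that include equality. The list median of -0.12 ran from -0.26 to 0.02 over the alternatives. STEAP3, which reduces iron released from transferrin in endosomes, stood at 6.46 and 2.25 FPKM, with a control-to-D16 ratio of 2.87 (95% interval 2.46 to 3.35). SLC39A14, a carrier of iron not bound to transferrin, stood at 11.4 and 5.53 FPKM, and the ferric reductase CYBRD1 at 20.3 and 14.5 FPKM. STEAP3 lay at -1.20 on the log2 scale and was short of 2-fold with a pseudocount of 5 FPKM (-0.66). On the log2(FPKM + 1) scale TFRC passed 2-fold upwards and STEAP3 downwards among the 7 uptake genes counted, beside 3.63% and 3.97% of all genes counted. SLC39A14 lay at -0.92 on that scale, with a control-to-D16 ratio of FPKM of 2.06, and passed 2-fold with TMM (-1.04), after centring (-1.07) and with a pseudocount of 0.1 FPKM (-1.03). None of the 5 export genes reached a mean of 1 FPKM.

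Beside ferritin and NCOA4, the 3 other storage genes counted were lower by small amounts, PCBP1 by almost nothing (-0.0015) after rescaling to equal sums. The iron chaperone PCBP1, which loads ferritin, stood at 151 and 133 FPKM and PCBP2 at 36.7 and 30.4 FPKM. HERC2, a ligase that marks NCOA4 for degradation, stood at 2.94 and 2.32 FPKM. The messages of the iron regulatory proteins differed little, with ACO1 at 23.1 and 21.2 FPKM (sign changed by rescaling to equal sums) and IREB2 at 3.70 and 4.24 FPKM. HIF1A, a hypoxia factor that activates TFRC and is held in the same list, stood at 67.9 and 34.1 FPKM, with a control-to-D16 ratio of 1.99 (95% interval 1.92 to 2.07). On the log2 scale it lay at -0.97. It passed 2-fold downwards with TMM (-1.01) and after centring (-1.12). Rescaling without mitochondrial and the most abundant genes also took it past the line (-1.04).

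Both lists of iron-sulfur assembly had medians above 0, under every alternative tried. Over all genes counted 56.9% lay above 0. Of the mitochondrial iron and assembly genes 15 of 20 were above 0, and the median was 0.28. Of the 20, 2 were at least 2-fold higher, beside 3.63% of all genes counted. SLC25A28, the iron importer mitoferrin 2, stood at 3.09 and 14.6 FPKM, a ratio of 4.72 (95% interval 3.85 to 5.76). The other mitoferrin, SLC25A37, lay the other way, at 12.1 and 6.60 FPKM, a ratio of 0.544 (95% interval 0.506 to 0.585). CISD2, an iron-sulfur protein anchored in organelle membranes, had 2.98 and 11.3 FPKM (ratio 3.80, 95% interval 3.40 to 4.25), and the assembly cochaperone HSCB had 3.00 and 6.46 FPKM. On the log2(FPKM + 1) scale HSCB lay at 0.90. It passed 2-fold after rescaling to equal sums (1.045) and with a pseudocount of 0.1 FPKM (1.08). In the cytosolic assembly list 9 of 11 genes lay above 0 with a median of 0.39, and none passed 2-fold on the log2(FPKM + 1) scale. CIAO2A stood at 9.74 and 20.3 FPKM, a ratio of 2.08 without the pseudocount, and passed 2-fold with TMM (1.01), after rescaling to equal sums (1.15) and with a pseudocount of 0.1 FPKM (1.05). CIAPIN1 stood at 6.46 and 12.9 FPKM and passed it after rescaling to equal sums (1.07), while MMS19, which hands clusters to DNA enzymes, stood at 13.7 and 8.54 FPKM.

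**Figure D5:**
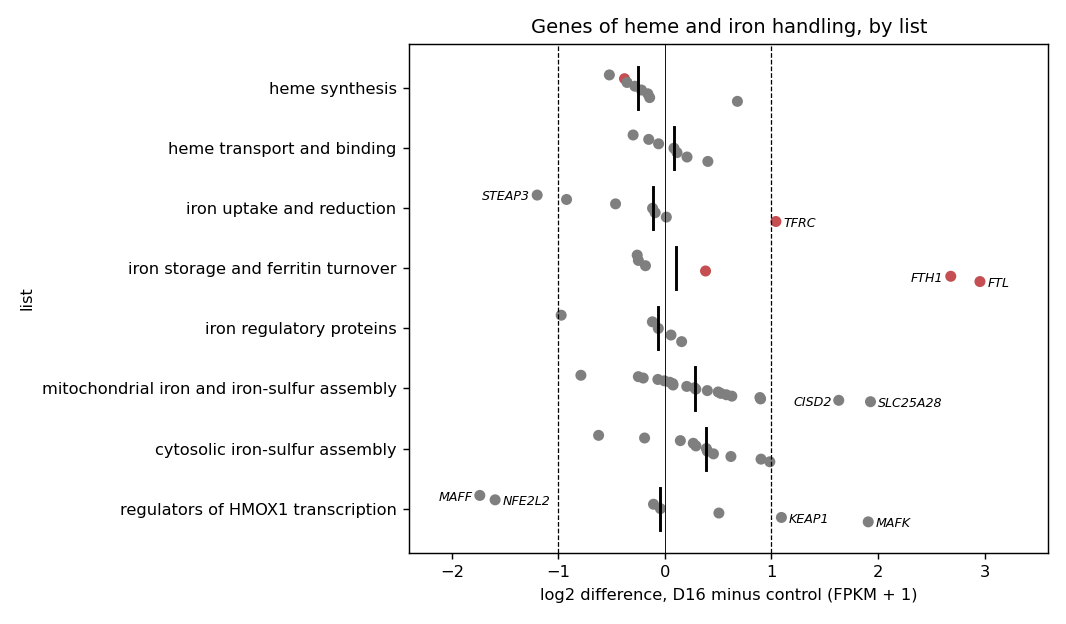
Log2 difference (D16 minus control, FPKM + 1) of each gene counted in 8 lists of heme and iron handling, with members of the set in red, other genes in grey, list medians as black bars and dashed lines at 2-fold. FTL and FTH1 lie farthest to the right, and STEAP3, MAFF and NFE2L2 lie beyond 2-fold on the left.

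HMOX1 transcription is known to be held down by BACH1, which heme releases from DNA, and driven by NRF2 (NFE2L2) with small MAF partners, while KEAP1 marks NRF2 for degradation. Of the 7 regulators, 2 passed 2-fold upwards and 2 downwards, beside 3.63% and 3.97% of all genes counted. The list median of -0.04 ran from -0.19 to 0.13 over the alternatives. MAFK stood at 2.37 and 11.6 FPKM, a ratio of 4.92 (95% interval 4.24 to 5.68), and MAFF at 12.9 and 3.18 FPKM, with a control-to-D16 ratio of 4.07 (95% interval 3.64 to 4.55). NFE2L2 stood at 21.4 and 6.41 FPKM. KEAP1, the other gene past 2-fold upwards, stood at 16.01 and 35.3 FPKM, short of it on the log2 scale after centring (0.95) and with a pseudocount of 5 FPKM (0.94). BACH1 stood at 9.52 and 8.77 FPKM, and rescaling to equal sums changed its sign. Messages do not show the amount or activity of these proteins.

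The label epithelial was matched in part. The epithelial keratins KRT19 (177 and 86.7 FPKM), KRT18 (67.7 and 60.4 FPKM) and KRT8 (47.0 and 30.6 FPKM) were present, whereas CDH1 stood at 0.154 and 0.0568 FPKM; the summed level of the 5 markers was 295 FPKM in control cells and 179 in D16 cells. Of the receptors that define the subtype, ERBB2 was highest at 5.38 and 5.72 FPKM. ESR1 stood at 0.0192 and 0.00935 FPKM, and PGR was listed at 0 in both libraries. Of 9 erythroid markers 8 were listed at 0 in both libraries, and ALAS2 stood at 0 and 0.0210 FPKM. Of 7 macrophage markers, CD68 stood at 61.6 and 75.5 FPKM, a lysosomal gene not limited to macrophages, while CD14 stood at 0.629 and 0.243 FPKM, CSF1R at 0.312 and 0.0982 FPKM, the blood cell gene PTPRC at 0.0540 and 0.00935 FPKM and ITGAM at 0 and 0.0215 FPKM. CD163 and MARCO were listed at 0 in both libraries. The highest hepatocyte marker was SERPINA1 at 4.59 and 0.794 FPKM. The other hepatocyte markers reached at most 0.361 FPKM in either library, and 2 of the 6 were listed at 0 in both. The highest fibroblast marker was COL1A1 at 2.72 and 2.46 FPKM. Among fibroblast markers only PDGFRB, at 1.02 and 0.301 FPKM, had a ratio interval (0.212 to 0.417) that excludes equality. The part of these marker differences in the results above was not tested.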

How the data were processed

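The FPKM values deposited by the authors, named so per the file headers, were used as given, with 0.0001 read as absent. Estimated counts deposited beside them, called counts per the file headers, are integers summing to 72108404 (control) and 73303902 (D16). Per the submitters' processing notes the tools were StringTie 1.3.4d, HISAT2 2.0.4 and cutadapt 1.9; their roles and the genome build are not given in the sources used here, and coordinates of genes are printed as deposited. Control counts pile up at 4 (1308 genes, against 473 at 3 and 254 at 5) and at 8 (739 genes, against 308 at 7 and 194 at 9). Lower values also occur, with 735 genes at 1 count and 651 at 2. From these values 1 read pair was set at 4 counts, an inference on which all intervals rest.

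Differences were log2((D16 FPKM + 1) / (control FPKM + 1)), which understates low genes. Genes averaging 1 FPKM or more were counted at 2-fold. Ratios carry no pseudocount. Each ratio has a 95% interval from exact Clopper-Pearson bounds on the D16 share of read pairs, turned into a ratio and multiplied by 0.962, the common factor between the units over 13018 genes. Intervals of levels are exact Poisson bounds. PCR reads are not independent molecules, so intervals cover counting error only.

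Members and lists were chosen with earlier results of these data known. Named genes were all members, up to 3 genes per list by size of difference, the highest marker of each cell type, the 3 highest pseudogenes per ferritin and the 3 genes nearest in difference to HMOX1 and to FTL; names made from a clone did not count as symbols. KEAP1, BACH1, NMRAL1, BEST1, MT-CO2, FTH1P5, SLC25A37, ABCG2, FLVCR2, HPX, PTPRC, CD14, CSF1R, ITGAM, CD163, MARCO, PDGFRB, CDH1, KRT8, KRT18, ESR1 and PGR lie outside that rule and were added with their values known. Pseudogene identity is edit distance over the shorter sequence. The steps were tested on simulated data; Python 3.11.15, scipy 1.17.1 and edgeR 4.0.16 (TMM scaling of counts, as an alternative) were used. Alternatives were other pseudocounts, filters, thresholds and scalings and summed counts. A list of top genes, 2 sheets of Gene Ontology terms and a sheet without headings were not used here, and 1 gene that the naming rule gives is not reported here.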

Additional observations from a re-analysis of the deposited data

How the results depend on the processing

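No paired analysis was possible because each group holds 1 library, and leaving out a library was not possible for the same reason. The count of members at least 2-fold higher was 4, or 3 at 3-fold, after centring, with a pseudocount of 5 FPKM and after rescaling without mitochondrial and the 20 most abundant genes; the count lower was 0 under all 10 alternatives run on it. HMOX1 ran from 3.06 to 3.98 on the log2 scale, FTL from 2.81 to 3.14, FTH1 from 2.54 to 2.87 and TFRC from 0.90 to 1.22. HMOX2 ran from -0.04 to 0.28 and was the only member to change sign. The median of the members, 0.47, was 0.32 after centring and 0.64 after rescaling to equal sums. Of the 66 other heme and iron genes counted, 4 were at least 2-fold higher and 3 lower, beside 430 and 470 of all 11830 genes counted. At 1.5-fold these were 11 and 7, beside 1563 and 1296 over all genes. After rescaling to equal sums 8 were higher, beside 681 over all genes. With TMM 5 were lower, beside 742 over all genes, and after centring 5, beside 675. Over all genes the counts of 430 and 470 ran from 150 and 139 with a pseudocount of 5 FPKM to 717 and 847 with 0.1 FPKM, and were 742 lower with TMM, 681 higher after rescaling to equal sums, 280 and 234 among genes averaging 5 FPKM or more, 1563 and 1296 at 1.5-fold and 126 and 140 at 3-fold. Among the genes named outside the set, ACO1, ERBB2, ALAS2, COL1A1, BACH1, KRT18 and ITGAM changed sign. Medians of the lists for heme transport, iron uptake, storage, iron regulatory proteins and HMOX1 regulators changed sign under at least 1 alternative. Depth limits SLC40A1, at 324 and 266 counts, and the pseudogenes below 1 FPKM. With 1 library per group, variation between cultures is not measured.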
